A study of Saccharomyces cerevisiae with 12 samples.

Results

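The genes described here code for the enzymes of lower glycolysis in Saccharomyces cerevisiae, the steps from the splitting of fructose 1,6-bisphosphate to pyruvate. They are 10 of the 7126 genes in the deposited table, chosen by the enzyme each gene encodes, though with earlier results of these data known. The 10 are FBA1 (YKL060C), TPI1 (YDR050C), TDH1 (YJL052W), TDH2 (YJR009C), TDH3 (YGR192C), PGK1 (YCR012W), GPM1 (YKL152C), ENO1 (YGR254W), ENO2 (YHR174W) and CDC19 (YAL038W). All 10 had enough counts to be tested.

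The study asked whether phosphorylation of the elongation factor Spt4 by the stress kinase Hog1 is needed for the transcriptional response to osmostress. Poly(A) RNA was sequenced from 12 yeast cultures in 4 groups of 3 biological replicates. The groups were wild type (WT) cells and Spt4-AA cells, each left unstressed or kept in 0.4 M NaCl for 15 min. Both strains derive from BY4741, grew to log phase in YPD at 30°C and carry a TAP tag on SPT4 with the kanMX4 marker. In Spt4-AA cells the tagged protein has both Hog1 target residues, T42 and S43, replaced by alanine, so neither strain is ordinary BY4741. The ENO1 mRNA was the loading control on the Northern blots of the same study.

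Glycolysis turns glucose into pyruvate. In its lower part aldolase splits the sugar, glyceraldehyde-3-phosphate dehydrogenase takes up inorganic phosphate and reduces NAD+, and phosphoglycerate kinase and pyruvate kinase make ATP. The triose phosphates made at the aldolase step are also the starting point of glycerol, the compatible solute that yeast cells accumulate upon osmostress. In cells growing on glucose these enzymes are among the most abundant proteins, and the transcription factors Gcr1 and Rap1 are known to drive many of their genes.

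The libraries held 12903162 to 21909524 counts. Within groups no pair of libraries agreed to within sampling noise, so each was counted as 1 sample. The LEU2, MET17 and URA3 genes, which BY4741 lacks, had 0 to 2 counts together in 11 libraries and 139 in Spt4-AA NaCl replicate 2. In addition, the library numbers in the labels of Spt4-AA NaCl replicates 1 and 2 stand apart from those of the other 10 libraries. For both reasons, edgeR results on the stressed mutant are also given from a fit with a term for the library numbers, in which the stressed mutant rests on replicate 3. Shares within libraries were not fitted with that term. Levels are given as normalized CPM, that is, counts scaled to a common library size (CPM) with edgeR's TMM factor, and comparisons between genes as normalized CPM per kb of coding length.

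The GAPDH and enolase isozymes are encoded by near-identical copies, which reads tell apart only at the bases in which the copies differ. Whether reads shared between copies were counted is not settled, so the separate values may also hold such reads. ENO1 (chromosome VII, 1000927 to 1002240, R64) and ENO2 (chromosome VIII, 451327 to 452640) differed at 68 of 1314 coding bases. Of the 1265 positions at which a read of 50 bases can start in either enolase gene, 966 were unique in the genome. TDH2 (chromosome X, 453683 to 454681) and TDH3 (chromosome VII, 882812 to 883810) differed at 42 of 999 bases, and TDH1 (chromosome X, 338271 to 339269) was identical to TDH2 at 90.19% and to TDH3 at 88.89% of bases. The unique share of read positions was 84.32% in TDH1, 68.74% in TDH2 and 75.58% in TDH3, and every position was unique in FBA1, TPI1, PGK1, GPM1 and CDC19. The stretches below are from the RefSeq R64 genome, 5′ to 3′ on the coding strand, with capitals at each base that differs between copies. They are the stretches of 60 bases with the most such bases, 13 for the enolases (gene bases 340 to 399) and 21 for GAPDH (gene bases 64 to 123). Elsewhere the copies are more alike, with identical runs of up to 112 bases between ENO1 and ENO2 and 173 between TDH2 and TDH3.
ENO1: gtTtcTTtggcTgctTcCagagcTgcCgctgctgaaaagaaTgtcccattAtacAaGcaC
ENO2: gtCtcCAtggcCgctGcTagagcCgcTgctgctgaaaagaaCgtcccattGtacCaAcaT
TDH1: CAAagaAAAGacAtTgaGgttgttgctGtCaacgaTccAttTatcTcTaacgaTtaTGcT
TDH2: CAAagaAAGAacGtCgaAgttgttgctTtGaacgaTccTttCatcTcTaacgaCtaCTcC
TDH3: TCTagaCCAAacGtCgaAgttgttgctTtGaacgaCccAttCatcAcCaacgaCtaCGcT

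The members differed widely in level before stress. In WT cells without stress TDH3 was highest, at 35728 ± 2872 normalized CPM per kb (SD, n = 3). ENO2 followed at 16963 ± 1763 (SD, n = 3) on the same scale. Next came FBA1, GPM1, PGK1, TDH2, CDC19 and TPI1, from 14219 down to 7784 normalized CPM per kb, and within this stretch the libraries of FBA1 and GPM1 overlapped, as did those of each neighbouring pair from PGK1 to TPI1. The minor isozymes ENO1 (2262 ± 203) and TDH1 (1329.7 ± 79.6; both SD, n = 3, normalized CPM per kb) were lowest, and their libraries overlapped with those of no other member. Spt4-AA cells without stress had the same order. The 10 genes together held between 11.4% and 12.3% of all counts in the 6 unstressed libraries.

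**Figure D1:**
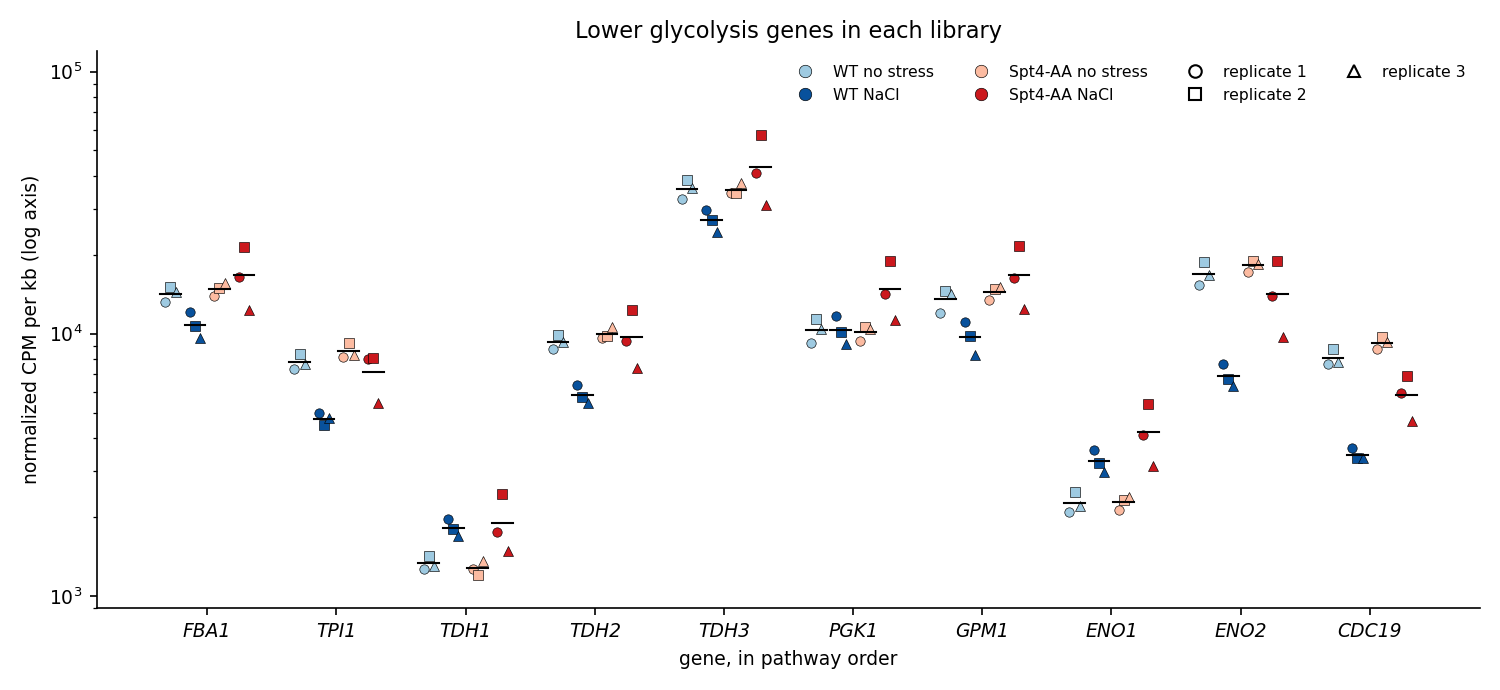
Normalized CPM per kb of coding length (log axis) of the 10 lower glycolysis genes, in pathway order, in each of the 12 libraries. Points are libraries, shaped by replicate and coloured by group, and bars are group means. The dark blue points (WT NaCl) lie below the light blue points (WT no stress) for 7 genes and above them for TDH1 and ENO1, and the red points (Spt4-AA NaCl) are spread widest.

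Upon 15 min of NaCl, WT cells lowered 5 of the 10 mRNAs and raised 2, TDH1 and ENO1, according to edgeR (quasi-likelihood test, p adjusted by Benjamini-Hochberg over the 6040 genes tested). Over all genes tested 33.9% were called lower and 36.4% higher, so calls in either direction were common in this comparison. The median log2 fold change was -0.44 over the 10 genes and 0.03 over all genes tested. ENO2 and CDC19 were the only 2 members that fell more than 2-fold. The members of 1 pathway thus moved in both directions, and the products of the duplicated enolase and GAPDH genes separated.

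CDC19, the pyruvate kinase of cells growing on glucose, was at 11527, 13122 and 11742 normalized CPM in WT cells without stress and at 5524, 5022 and 5042 upon NaCl. The groups were far apart. The log2 fold change was -1.22 ± 0.16 (SE, adjusted p = 7.99e-06 by edgeR's quasi-likelihood test), a 2.33-fold fall.

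ENO2, the enolase of cells growing on glucose, was at 20142, 24743 and 21984 normalized CPM without stress and at 10099, 8858 and 8274 upon NaCl. No stressed library reached an unstressed one. It fell by 1.30 ± 0.21 on the log2 scale (SE, adjusted p = 7.23e-05 by the same edgeR test), or 2.46-fold.

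ENO1, the second enolase gene, moved the other way. Its normalized CPM was 2749.7, 3269 and 2899.6 without stress and 4719.9, 4216 and 3902 upon NaCl, with no overlap. Its log2 fold change was 0.53 ± 0.18 (SE, adjusted p = 0.0156, edgeR).

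The GAPDH genes showed the same kind of split. TDH1, the minor isozyme gene, was at 1268, 1418 and 1299 normalized CPM without stress and at 1963, 1799 and 1694 upon NaCl. All 3 stressed libraries were higher, and the log2 fold change was 0.45 ± 0.16 (SE, adjusted p = 0.0198, edgeR). TDH2 was at 8719, 9852 and 9314 normalized CPM without stress and at 6345, 5705 and 5428 upon NaCl, a fall of all 3 libraries with a log2 fold change of -0.67 ± 0.17 (SE, adjusted p = 0.0031, edgeR). TDH3, the main isozyme gene, was at 32731, 38459 and 35887 without stress and at 29618, 27100.1 and 24317 upon NaCl. The TDH3 groups did not overlap, but its log2 fold change of -0.40 ± 0.21 did not pass the test (SE, adjusted p = 0.0979, edgeR).

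The calls on ENO1 and TDH1 rest on each of 3 libraries. Both were lost without WT no stress replicate 1, without WT no stress replicate 3 or without WT NaCl replicate 1, with log2 fold changes that stayed between 0.45 and 0.60 for ENO1 and between 0.39 and 0.50 for TDH1 over the 12 fits that each left out 1 library. Scaling by library totals alone kept both genes higher. It moved the median log2 fold change of all genes to 0.38 and that of the 10 members to -0.10, and 46.8% of all genes tested were then called higher and 22.6% lower.

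TPI1, triose phosphate isomerase, was at 5466, 6262 and 5716 normalized CPM in WT cells without stress and at 3709, 3339 and 3549.5 upon NaCl. The groups stood well apart, and it fell by 0.72 ± 0.16 on the log2 scale (SE, adjusted p = 0.000943, edgeR). FBA1, the aldolase upstream of it, was at 14218, 16257 and 15595 without stress and at 13034, 11525 and 10354 upon NaCl. These groups did not overlap either, but the FBA1 log2 fold change of -0.40 ± 0.19 did not pass the test (SE, adjusted p = 0.0741, edgeR). The calls on FBA1 and TDH3 depended on the stressed mutant libraries, which share the estimate of the spread. Both were called lower with the term for library numbers (adjusted p = 0.0113 and 0.0171, edgeR) and without Spt4-AA NaCl replicate 2 or 3, which makes 7 members lower in place of 5.

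GPM1, phosphoglycerate mutase, was at 8951, 10849.8 and 10549.8 normalized CPM without stress and at 8260.3, 7292 and 6175 upon NaCl. It fell by 0.48 ± 0.19 on the log2 scale (SE, adjusted p = 0.038, edgeR), a call that was lost with library totals alone (log2 fold change -0.14) and in 5 of the 12 fits that left out 1 library. PGK1, phosphoglycerate kinase, had the smallest fold change of the members. Its normalized CPM was 11500.0, 14194 and 12992 without stress and 14551, 12732 and 11469 upon NaCl, 2 ranges that overlap, and its log2 fold change was 0.00 ± 0.19 (SE, adjusted p = 0.991, edgeR). Its sign depended on the scaling: it was -0.02 with DESeq2's size factors in edgeR and 0.34 with library totals alone.

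The order of the members after stress changed accordingly. In WT NaCl TDH3 stayed highest at 27039 ± 2654 normalized CPM per kb, followed by FBA1, PGK1 and GPM1, whose libraries overlapped in that order. ENO2 had moved from rank 2 to rank 5 with 6908 ± 709.5, beside TDH2 (both SD, n = 3, normalized CPM per kb). CDC19 at 3457 ± 189 and ENO1 at 3257 ± 314 (SD, n = 3, normalized CPM per kb) overlapped, and TDH1 was lowest. The summed level of both enolase genes was 25263 ± 2581 normalized CPM without stress and 13356 ± 1344 upon NaCl (SD, n = 3), while that of the 3 GAPDH genes was 46315 ± 3509 and 34657 ± 3244.

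In Spt4-AA cells, 3 of the 10 mRNAs rose (ENO1, TDH1 and PGK1) and 1 fell (CDC19) upon NaCl, with 34.9% of all genes tested called higher and 33.4% lower by the same edgeR test. The median log2 fold change of the members was 0.20, against 0.01 over all genes tested. The number of rising members was 6 without Spt4-AA NaCl replicate 3, and the number of falling members was 2 without replicate 2, where ENO2 also fell. With the term for library numbers 1 member rose, ENO1, and 4 fell, TPI1, TDH2, ENO2 and CDC19, at a median of -0.24, so that the direction of the median turned with the libraries used. In that fit 30.4% of all genes tested were called higher and 28.4% lower.

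ENO1 and CDC19 were called in the same direction in both strains, with and without the term. In Spt4-AA cells ENO1 was at 2797, 3045 and 3124 normalized CPM without stress and at 5402, 7109 and 4123 upon NaCl. Its log2 fold change was 0.89 ± 0.18 (SE, adjusted p = 0.00045, edgeR), and 0.46 (adjusted p = 0.0284, edgeR) with the term for library numbers. CDC19 was at 13120.1, 14562 and 14016 normalized CPM without stress and at 8916, 10383 and 6952 upon NaCl, a fall in all 3 libraries. The log2 fold change of CDC19 was -0.67 ± 0.16 (SE, adjusted p = 0.00199, edgeR), and -0.9996 (adjusted p = 8.92e-05, edgeR) with the term.

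Of the other members, TDH3, FBA1, GPM1, TDH2 and ENO2 had stressed Spt4-AA libraries that overlapped the unstressed ones. TDH3 was at 34298, 34458 and 37373 normalized CPM without stress and at 40864, 57234 and 30907 upon NaCl, so that replicates 1 and 2 lay above and replicate 3 below the unstressed range. FBA1 (17799, 23082 and 13298 upon NaCl, against 14980.3 to 16819.7 without stress) and GPM1 (12182, 16075 and 9264, against 10039.9 to 11231) were arranged alike. Their log2 fold changes of 0.28, 0.18 and 0.22 did not pass the edgeR test, and they were -0.19, -0.26 and -0.22 with the term for library numbers. In contrast, PGK1 was higher in all 3 stressed libraries, at 17689, 23738 and 14059.8 normalized CPM against 11768, 13283 and 13075. Its log2 fold change was 0.54 ± 0.19 (SE, adjusted p = 0.0214, edgeR), a call that was lost without Spt4-AA NaCl replicate 2, without Spt4-AA no stress replicate 1 and with the term (0.15). TDH1 was higher in the 3 stressed libraries as well, at 1755, 2446 and 1484 against 1259.9, 1201 and 1360.4. It had a log2 fold change of 0.57 ± 0.16 (SE, adjusted p = 0.00542, edgeR), and of 0.22 (adjusted p = 0.272, edgeR) with the term.

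TPI1, TDH2 and ENO2 did not pass the test in the mutant. The TPI1 level was 6112, 6855 and 6212 normalized CPM without stress and 5981, 6020.3 and 4067 upon NaCl, and that of TDH2 was 9585, 9785 and 10609 without stress and 9397, 12266 and 7404 upon NaCl. ENO2 was at 22679, 24796 and 24328 without stress and at 18251, 24968 and 12759 upon NaCl. In each gene replicate 3 was the lowest stressed library, and only in TPI1 did all 3 stressed libraries lie below the unstressed ones. Their log2 fold changes were -0.26, -0.04 and -0.36, and with the term for library numbers all 3 passed the edgeR test at -0.65, -0.43 and -0.91.

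**Figure D2:**
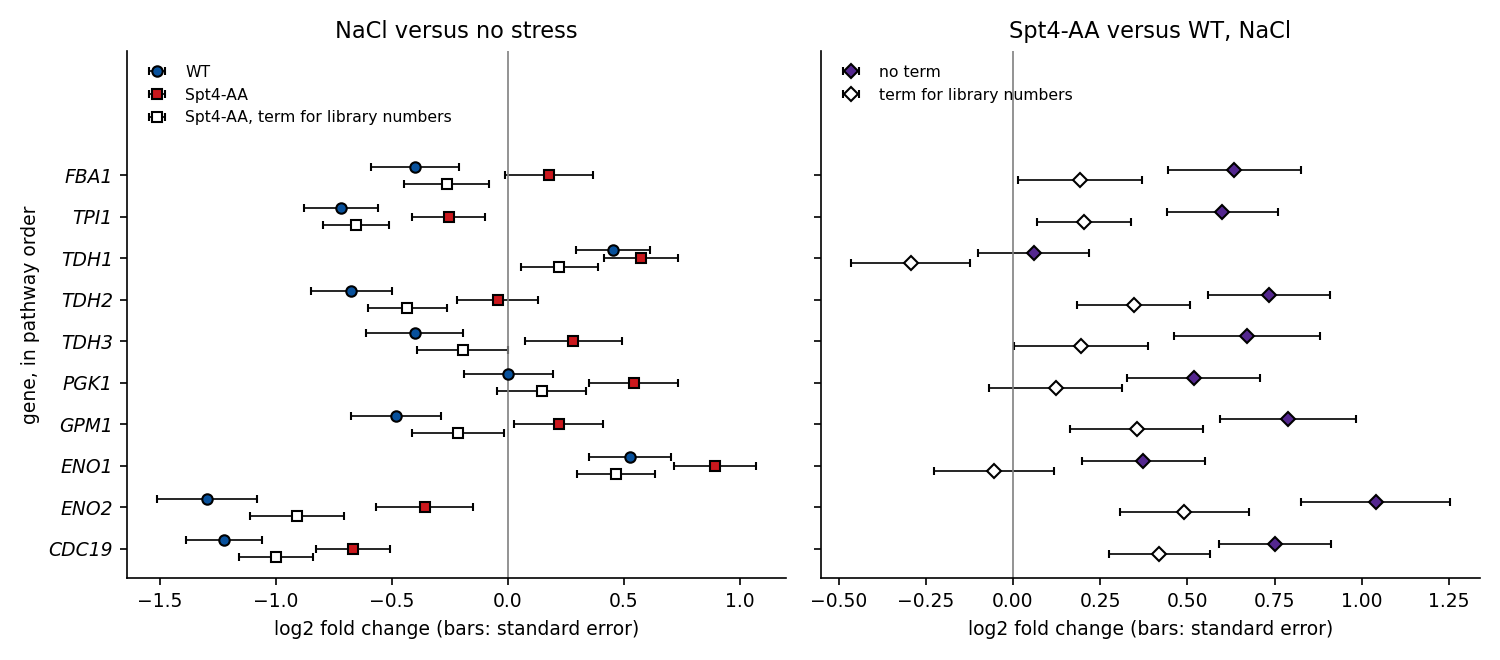
Left, log2 fold changes of NaCl over no stress for the 10 genes in WT (blue circles) and Spt4-AA cells (red squares), and in Spt4-AA cells with a term for library numbers (white squares). Right, log2 fold changes of Spt4-AA over WT upon NaCl without (filled diamonds) and with that term (white diamonds). Bars are standard errors. All 10 filled diamonds lie above 0, and with the term TDH1 and ENO1 lie below 0 and no gene passes the test.

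Before stress no member passed the test between the strains. By edgeR's quasi-likelihood test 0 of 10 were called, 0 had an unadjusted p under 0.05, and DESeq2 also called 0, while 0.265% of all genes tested were called higher and 0.563% lower in the mutant. The member log2 fold changes ran from -0.06 (TDH1) to 0.20 (CDC19). For CDC19 the 95% confidence interval of the log2 fold change was -0.15 to 0.54, and for ENO2, at 0.10, it was -0.35 to 0.55.

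Upon NaCl, 8 of the 10 genes were higher in Spt4-AA than in WT cells and 0 were lower, with 24.3% of all genes tested called higher and 23.4% lower by the same edgeR test. ENO2 differed most, at 1.04 ± 0.21 on the log2 scale (SE, adjusted p = 0.00126, edgeR), followed by GPM1 at 0.79, CDC19 at 0.75 and TDH2 at 0.73. The uncalled members were TDH1, at 0.06, and ENO1, at 0.37 (adjusted p = 0.778 and 0.0934, edgeR). The median over the members was 0.65, against -0.02 over all genes tested. The call count was 5 without WT NaCl replicate 3, and 6 without Spt4-AA NaCl replicate 2. Of the 8, PGK1 had the largest adjusted p (0.52, adjusted p = 0.0379, edgeR), and its libraries overlapped between the strains. Its call was lost in 7 of the 12 fits that left out 1 library, that of TDH3 in 3 and that of FBA1 in 1.

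This difference cannot be told apart from the split in library numbers. With the term for it 0 of the 10 genes were called by edgeR in either direction, and of all genes tested 13.5% were called higher and 10.7% lower. The log2 fold change was above 0 in 8 members, with a median of 0.20. The largest were ENO2 at 0.49 (adjusted p = 0.0711, edgeR) and CDC19 at 0.42 (adjusted p = 0.0505, edgeR), which thus missed the threshold narrowly. In single libraries, the CDC19 level of Spt4-AA NaCl replicate 3, 6952 normalized CPM, was above all 3 WT NaCl libraries. Its ENO2 level of 12759 was also above all 3. The TMM factors of the 3 stressed mutant libraries were 1.01, 0.876 and 1.17, and those of the WT NaCl libraries 1.11 to 1.25.

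The difference in response between the strains, the NaCl effect in Spt4-AA minus that in WT, was above 0 in all 10 members, at a median of 0.57 on the log2 scale. It passed the edgeR test in ENO2 alone, at 0.94 ± 0.30 (SE, adjusted p = 0.0328), while 15.0% of all genes tested had a higher and 11.0% a lower response in the mutant. The unadjusted p was under 0.05 in 6 members and in 2344 of the 6040 genes tested. The median difference over all genes tested was -0.007. This comparison uses the same stressed mutant libraries as the one before it. The ENO2 call was lost in 8 of the 12 fits that left out 1 library, namely every one except those without WT no stress replicate 1, WT NaCl replicate 1, or Spt4-AA NaCl replicate 2 or 3. Without Spt4-AA NaCl replicate 3, 9 members passed, and with the term for library numbers 0 did (ENO2 0.39, adjusted p = 0.31, edgeR). The other members had log2 values from 0.12 (TDH1) to 0.70 (GPM1), with adjusted p from 0.0747 to 0.719 by the same edgeR test. DESeq2 called 5 of the 10 higher, and 988 of the 7126 genes in the deposited table. For the fits that left out 1 library, the shares over all genes are not given here.

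Shares within a library do not depend on the scaling between libraries. The 10 genes together held 11.4%, 12.2% and 11.8% of all counts in WT cells without stress and 10.8%, 10.2% and 9.99% upon NaCl. In Spt4-AA cells they held 12.01%, 12.2% and 12.3% without stress and 14.0%, 16.0% and 12.2% upon NaCl. Stressed mutant replicate 3 thus lay within the unstressed range and replicates 1 and 2 above it. Averaged over conditions, the share was 2.05 percentage points higher in the mutant (two-sided exact permutation test stratified by condition, p = 0.015, adjusted p = 0.01875 over 10 such tests, n = 3 a group). This average was made up of 0.38 points without stress and 3.71 points upon NaCl (exact permutation p = 0.3, and 0.1, the smallest possible, 3 against 3 libraries). The averaged difference no longer passed without any 1 of the WT NaCl libraries (p = 0.055, 0.065 and 0.07, the same stratified exact permutation test). For NaCl within strains the mean difference was 0.22 points (exact permutation p = 0.815, n = 3 a group), made up of -1.45 points in WT cells, whose groups did not overlap, and 1.88 points in Spt4-AA cells (exact permutation p = 0.1, the smallest possible, and 0.3, 3 against 3 libraries).

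The ENO1 share of enolase counts separated both conditions and strains. It was 12.01%, 11.7% and 11.7% in WT cells without stress and 31.9%, 32.2% and 32.0% upon NaCl. In Spt4-AA cells it was 11.0%, 10.9% and 11.4% without stress and 22.8%, 22.2% and 24.4% upon NaCl. All 6 stressed libraries were above all 6 unstressed ones, and all 3 stressed mutant libraries, replicate 3 included, were below the stressed WT libraries. The NaCl effect within strains was 16.2 percentage points (two-sided exact permutation test stratified by strain, p = 0.005, the smallest it can give, adjusted p = 0.008333 over 10 tests, n = 3 a group). The strain effect within conditions was -4.79 points (exact permutation p = 0.005, adjusted p = 0.008333, n = 3 a group). Upon NaCl alone the strains differed by -8.91 points and without stress by -0.68 points, comparisons of 3 against 3 libraries in which the smallest exact permutation p, 0.1, was reached each time. Both genes have 966 unique read positions, so correcting for them left these shares as they were. In these terms the ENO2 level per kb was 7.49 ± 0.14 times that of ENO1 in WT cells without stress and 2.12 ± 0.019 times upon NaCl, against 8.01 ± 0.20 and 3.33 ± 0.21 times in Spt4-AA cells (SD, n = 3).

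TDH1 behaved in the same way among the GAPDH genes, at a much lower share. It made up 2.97%, 2.85% and 2.79% of GAPDH counts in WT cells without stress and 5.18%, 5.20% and 5.39% upon NaCl. In Spt4-AA cells its share was 2.79%, 2.64% and 2.76% without stress and 3.37%, 3.40% and 3.73% upon NaCl. Again the groups with and without NaCl did not overlap in either strain, and the stressed mutant libraries lay between the unstressed and the stressed WT ones. The NaCl effect within strains was 1.58 percentage points and the strain effect within conditions -0.95 points (exact permutation p = 0.005 and adjusted p = 0.008333 for both, n = 3 a group).

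The TDH2 share was lower upon NaCl, going from 20.1% ± 0.30 to 16.8% ± 0.40 in WT and from 21.4% ± 0.16 to 17.9% ± 0.79 in Spt4-AA cells (SD, n = 3). The NaCl effect within strains was -3.39 percentage points (exact permutation p = 0.005, adjusted p = 0.008333, n = 3 a group), and the strain effect within conditions 1.21 points (exact permutation p = 0.01, adjusted p = 0.014286, n = 3 a group). TDH3 held the rest, 77.0% ± 0.38 and 77.9% ± 0.51 in WT and 75.8% ± 0.12 and 78.6% ± 0.94 in Spt4-AA cells without stress and upon NaCl (SD, n = 3). Its NaCl effect within strains was 1.81 points (exact permutation p = 0.005, adjusted p = 0.008333, n = 3 a group). Its strain effect averaged over conditions was -0.26 points (exact permutation p = 0.565, n = 3 a group), made up of -1.20 points without stress, where the strains did not overlap, and 0.67 points upon NaCl (exact permutation p = 0.1, the smallest possible, and 0.4, 3 against 3 libraries). The shares of the 3 genes add to the whole, so these tests are not independent of each other.

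**Figure D3:**
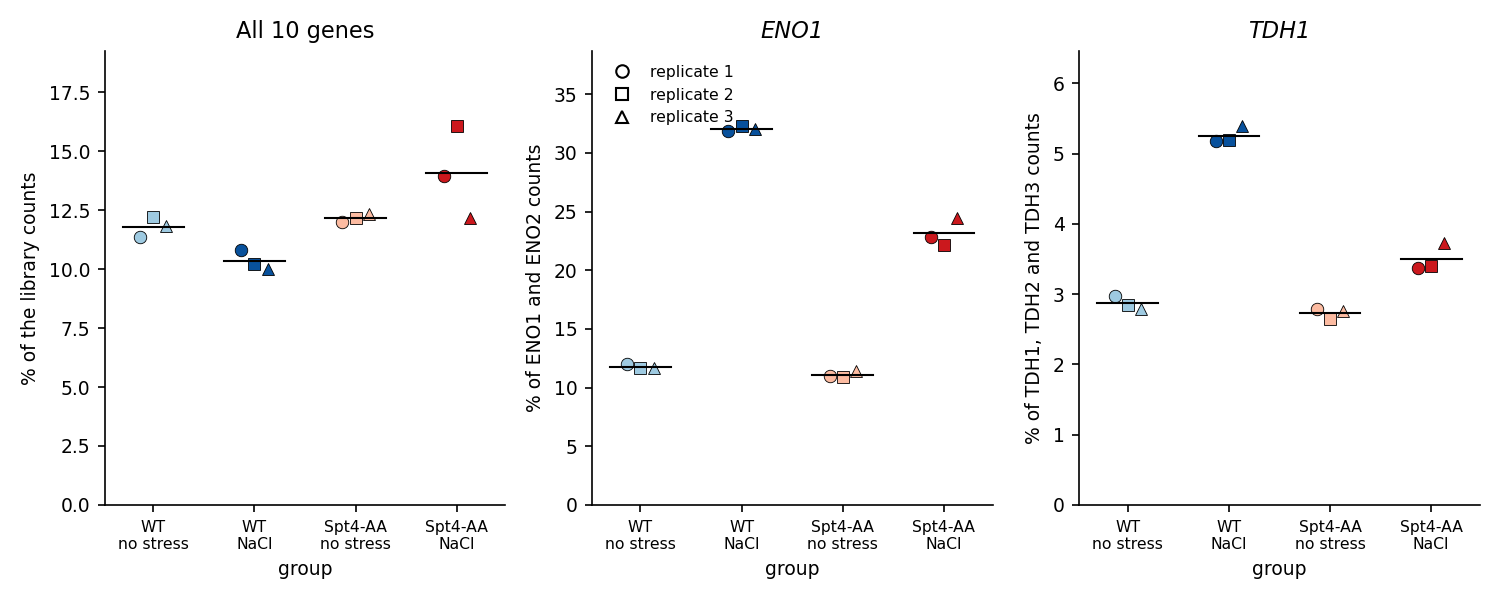
Left, share of all library counts held by the 10 genes, middle, ENO1 share of the ENO1 and ENO2 counts, and right, TDH1 share of the TDH1, TDH2 and TDH3 counts, in percent by group. Points are libraries, shaped by replicate, and bars are group means. The ENO1 share runs from 31.9% to 32.2% in WT NaCl and from 22.2% to 24.4% in Spt4-AA NaCl, while on the left the 3 Spt4-AA NaCl libraries spread from 12.2% to 16.0%.

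Most minor paralogs of the members rose much more. Over all genes tested, 36.4% in WT and 34.9% in Spt4-AA cells were called higher upon NaCl. Of the 6 minor paralogs of the members, 5 rose upon NaCl in both strains by edgeR's test, in Spt4-AA cells also with the term for library numbers. The pyruvate kinase gene PYK2 rose from 19.1 ± 1.5 to 158.6 ± 18.2 normalized CPM in WT cells (SD, n = 3), a log2 fold change of 3.05 ± 0.14 (SE, adjusted p = 6.84e-11, edgeR). The CDC19 level per kb was thus 643 ± 6.3 times that of PYK2 without stress and 33.4 ± 2.9 times upon NaCl (SD, n = 3). GPM2, a homolog of phosphoglycerate mutase, rose from 2.47 ± 0.13 to 26.0 ± 1.8 normalized CPM (SD, n = 3, log2 fold change 3.40), while GPM3, a further homolog, was at 34.4 ± 0.95 and 32.4 ± 3.0 (log2 fold change -0.09, adjusted p = 0.443, edgeR).

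The enolase-related genes ERR1, ERR2 and ERR3 were below 1 normalized CPM on average in unstressed WT cells, and had log2 fold changes of 2.84, 3.59 and 2.87 upon NaCl. No read of 50 bases wholly inside ERR1 or ERR2 is unique, and 35.9% of the positions in ERR3 are unique. Reads reaching past the gene ends were not checked, so the ERR counts cannot be assigned to 1 copy here.

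Upon NaCl, 5 of the 6 minor paralogs were lower in Spt4-AA than in WT cells by edgeR's test, against 23.4% of all genes tested. However, 3 of these 5 are the ERR genes, whose shared reads make them less than 3 separate measurements. The values ran from -0.46 (PYK2) to -0.99 (GPM2) on the log2 scale, and the GPM3 value was -0.02. The same 5 genes were lower with the term for library numbers, from -0.63 (PYK2) to -1.25 (ERR3). In GPM2 the response itself differed, at -0.86 ± 0.27 (SE, adjusted p = 0.033, edgeR), and at -0.95 (adjusted p = 0.0659, edgeR) with the term.

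**Figure D4:**
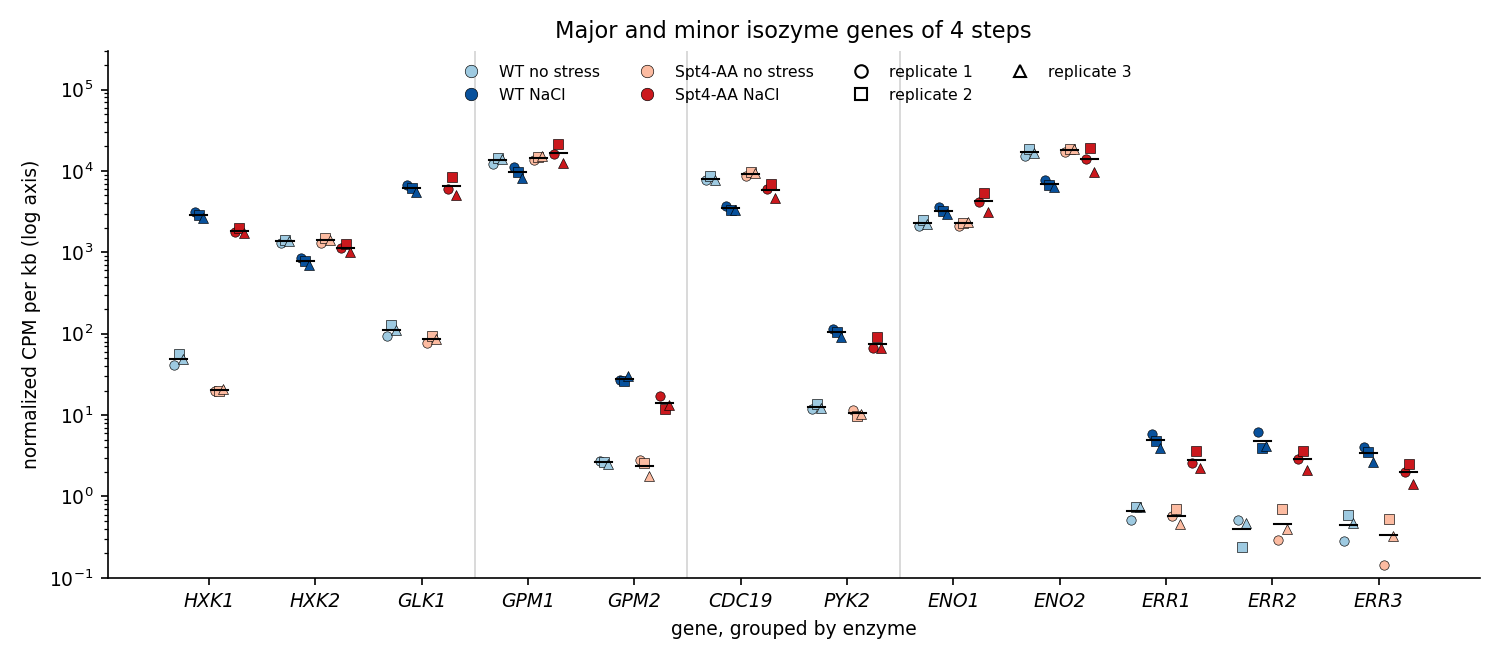
Normalized CPM per kb of coding length (log axis) of major and minor isozyme genes of hexokinase and glucokinase, pyruvate kinase and enolase, in each library. The phosphoglycerate mutase gene GPM1 with its homolog GPM2, and the enolase-related ERR genes, are shown as well. Points are libraries, shaped by replicate and coloured by group, and bars are group means. HXK1, GLK1, GPM2, PYK2 and the 3 ERR genes rise upon NaCl in both strains, whereas HXK2, CDC19 and ENO2 fall in WT cells.

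The 6 genes of upper glycolysis bring glucose to fructose 1,6-bisphosphate. In WT cells 2 rose, 2 fell and 2 did not pass the edgeR test. These counts lie near the shares over all genes tested, 36.4% higher and 33.9% lower. HXK1, a hexokinase, rose from 71.1 ± 10.7 to 4190.2 ± 331 normalized CPM and GLK1, glucokinase, from 166 ± 24 to 9256 ± 955 (SD, n = 3), with log2 fold changes of 5.88 and 5.80. HXK2, the main hexokinase on glucose, and PGI1, phosphoglucose isomerase, fell by 0.81 and 0.49 on the log2 scale. The phosphofructokinase subunit genes PFK1 and PFK2 had log2 fold changes of -0.22 and -0.29 (adjusted p = 0.0904 and 0.0536, edgeR).

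Between the stressed strains 24.3% of all genes tested were called higher in the mutant and 23.4% lower. In stressed Spt4-AA cells 2 of the 6 upper glycolysis genes were higher and 1 lower than in stressed WT cells. They were HXK2 (0.55) and PGI1 (0.52), both lost with the term for library numbers, and HXK1 (-0.65), which was lower with the term as well (-0.73, adjusted p = 0.00557, edgeR). HXK1 was also lower in the mutant without stress, at 29.4 ± 0.97 normalized CPM (SD, n = 3) and a log2 fold change of -1.27 (adjusted p = 0.000172, edgeR).

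Of the 8 genes that turn pyruvate into ethanol or back, 6 fell and 1 rose in WT cells upon NaCl. Their median log2 fold change was -0.95. The alcohol dehydrogenase genes ADH1 and ADH2, both among the 6, have 858 unique read positions of 998 each. Their separate values may thus also hold shared reads. Over all genes tested 33.9% fell and 36.4% rose in WT cells, and 33.4% and 34.9% in Spt4-AA cells. Between the stressed strains 24.3% of all genes tested were called higher in the mutant and 23.4% lower. The main pyruvate decarboxylase gene PDC1 fell by 1.16 and the mitochondrial alcohol dehydrogenase gene ADH3 by 1.59 on the log2 scale. PDC6, a minor pyruvate decarboxylase gene, rose from 1.44 ± 0.37 to 23.3 ± 2.9 normalized CPM (SD, n = 3). In Spt4-AA cells 4 fell and 2 rose (6 and 2 with the term for library numbers, where ADH1 and ADH2, further alcohol dehydrogenase genes, also fell), and upon NaCl 6 were higher and 1 lower than in WT cells, against 1 higher and 0 lower with the term.

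Over the 12 libraries the members fell into patterns that the fold changes already show. The correlation of log2 levels was highest between FBA1 and GPM1 (Pearson r = 0.993) and lowest between TDH1 and CDC19 (r = -0.582). ENO1 was most like TDH1 among the members (r = 0.946), and ENO2 was most like TPI1 (r = 0.976). The gene outside the list closest to ENO2 was ERG2 (r = 0.997), to CDC19 RPS14B (r = 0.994), to PGK1 HAC1 (r = 0.992), to ENO1 MXR2 (r = 0.992) and to TDH2 RIB3 (r = 0.994). For GPM1 it was ADH6 (r = 0.982), for TPI1 MFA2 (r = 0.981), for TDH3 MET30 (r = 0.977), for FBA1 EMC3 (r = 0.975) and for TDH1 LAT1 (r = 0.966). These are descriptions over 12 libraries that share 4 group means and a common scaling.

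The promoters of members that moved apart were compared by letters. In the 600 bases before the start codon, on either strand, CTTCC (the core of the Gcr1 motif) was found in 9 of the 10 members and in 72.9% of 5999 promoters. CACCCANAC (a Rap1 motif) was found in 3 members, TDH3, GPM1 and ENO1, and in 2.52% of promoters. AGGGG (the stress response element bound by Msn2 and Msn4) was found in 6 members and in 39.7% of promoters. TDH3 had the most AGGGG matches, 3, followed by TDH1, which rose in WT cells, with 2. ENO1, CDC19, TPI1 and PGK1 had 1 each and FBA1, TDH2, GPM1 and ENO2 had 0, so members that rose and fell both held it. For TDH1, ENO1 and CDC19, windows of 120 bases from RefSeq R64 are printed 5′ to 3′ on the coding strand with matches to any of the 3 motifs in capitals, since these genes moved in opposite directions. They lie on chromosome X, 337824 to 337943 (TDH1), chromosome VII, 1000444 to 1000563 (ENO1), and chromosome I, 71474 to 71593 (CDC19).
TDH1: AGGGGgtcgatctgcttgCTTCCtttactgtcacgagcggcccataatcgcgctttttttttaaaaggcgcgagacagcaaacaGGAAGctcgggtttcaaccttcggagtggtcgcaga
ENO1: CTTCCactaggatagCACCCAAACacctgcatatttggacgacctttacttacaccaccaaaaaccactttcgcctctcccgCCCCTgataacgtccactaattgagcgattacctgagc
CDC19: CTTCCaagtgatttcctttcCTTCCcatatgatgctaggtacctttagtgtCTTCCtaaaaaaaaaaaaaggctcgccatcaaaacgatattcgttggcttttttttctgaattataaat
The TDH1 window held 1 AGGGG and 2 CTTCC matches, 1 of them on the other strand. The ENO1 window held 1 match of each motif, and the CDC19 window held 3 CTTCC matches. Windows were taken at least 150 bases before the start codon, and no window of 120 bases there held more matches. These counts thus follow from the choice of window and do not compare the genes. The AGGGG match of CDC19 lies nearer its start codon, outside the window. Also outside were 1 AGGGG match of TDH1 and 1 CTTCC match of ENO1. A match of letters is no evidence of binding.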

How the data were processed

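RNA-seq was analysed in 12 libraries, 3 per group, grouped by the sample labels. Single-end reads of 50 bases were aligned by the authors to sacCer3 with TopHat2 2.1.0 and counted per gene with featureCounts 1.5.1 and the Ensembl R64 annotation. Their methods state that uniquely mapping reads were considered. ERR1 and ERR2 hold counts, though no read position wholly inside them is unique. Reads reaching past the gene ends were not checked. The handling of shared reads is thus not settled, and neither is the strand setting of the counting. The authors deposited whole-number counts for 7126 genes, not normalized. All values here were computed from those counts.

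Genes were filtered with filterByExpr (6040 tested, all 10 members among them), scaled by TMM and fitted with edgeR 4.0.16 (glmQLFit, glmQLFTest) in R 4.3.3, with 1 coefficient per group over the 12 libraries, and Benjamini-Hochberg adjustment over all genes tested. A gene was called at an adjusted p of 0.05. This fit replaces the DESeq2 1.14.1 analysis of the study's methods, and DESeq2 1.42.0 was run as an alternative. Normalized CPM per kb uses coding length. Confidence intervals are at 95%. Shares were tested with exact permutation tests (NumPy 2.4.6, Python 3.11.15), which with 3 against 3 libraries cannot go below 0.1. The scripts were tested on simulated counts.

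Named genes were all members, all upper glycolysis genes and all minor paralogs. In each other list, the 3 genes with the largest absolute log2 fold change in WT cells were named. So was, for each member, the gene outside the list with the highest correlation. ADH1, ADH2, ADH4 and ADH5 are named besides. The members, lists and motifs were chosen with earlier results of these data known. Alternatives were other scalings, filters, DESeq2, a replicate block, a term for library numbers, fits of only the compared groups, counts per unique read position and leaving out each library. Replicate numbers were taken not to pair the samples, since the correlations of same-numbered deviations ran from -0.438 to 0.416. Sequences and coordinates are from RefSeq R64, the assembly of sacCer3, and symbols matched the annotation for all members. The ERR genes had 3 to 133 counts per library, so that counting error weighs most in them.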

Additional observations from a re-analysis of the deposited data

Results flagged for a closer look

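By the interaction term of the edgeR quasi-likelihood fit, the response to NaCl differed between strains in 5 genes of the naming rule above. Over all genes tested 15.0% had a higher and 11.0% a lower response in the mutant. Outside that rule ADH1 (1.01, adjusted p = 0.034), ADH4 (0.53, adjusted p = 0.0104) and ADH5 (0.62, adjusted p = 0.0204) also passed. These 3 values were 0.23, 0.38 and 0.41 with the term for library numbers. The difference (Spt4-AA minus WT, log2) was 0.94 in ENO2 (adjusted p = 0.0328), where all 3 stressed mutant libraries were above all 3 stressed WT libraries. It was -0.86 in GPM2 (adjusted p = 0.033) and 0.63 in HXK1 (adjusted p = 0.0246), which started lower in the unstressed mutant. It was -0.88 in PFK26 (adjusted p = 0.0137) and -0.74 in FBP26 (adjusted p = 0.00373). With the term for library numbers FBP26 still passed, at -0.64 (adjusted p = 0.029), and the other 4 did not by the same edgeR test, with ENO2 at 0.39, GPM2 at -0.95, HXK1 at 0.55 and PFK26 at -0.63.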

How the results depend on the processing

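A replicate block changed no call and no count (ENO2 difference in response 0.90 against 0.94, adjusted p = 0.032 by edgeR's quasi-likelihood test), and same-numbered samples correlated at over 0.1 in 9 of 18 pairs only. A stricter filter left all 50 member values and 10 counts on their side. Library totals alone moved the median log2 fold change of all genes by up to 0.38. They gave 6 higher members in the Spt4-AA response (38.8% of all genes tested) and 5 in the difference in response (10.2%). They turned TDH2 in the Spt4-AA response (0.0755), ENO1 between unstressed strains (-0.006) and TDH1 between stressed strains (-0.18) and in the difference (-0.10). The term for library numbers gave 7 lower in the WT response, 1 higher and 4 lower in the Spt4-AA response, 0 higher between stressed strains and 0 in the difference. It turned FBA1 (-0.26), TDH3 (-0.19) and GPM1 (-0.22) in the Spt4-AA response, TDH1 (-0.29) and ENO1 (-0.054) between stressed strains, and TDH1 (-0.23) and ENO1 (-0.061) in the difference. DESeq2 gave 5 higher in the difference (988 over all genes in the table), and a fit of the compared groups alone 5 higher between stressed strains. PGK1 in the WT response turned to -0.017 with DESeq2's size factors in edgeR, -0.016 with DESeq2 and -0.0008 without a filter, and TDH3 between unstressed strains to 0.0048 and 0.0036 with the first pair of these. No turned value was called under either setting. The cause of these changes was not tested.

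Leaving out 1 library at a time, the WT response had 0 to 2 members higher and 4 to 7 lower, and the Spt4-AA response 2 to 6 higher and 1 to 2 lower. Between stressed strains 5 to 9 were higher, and in the difference 0 to 9. The shares over all genes in these fits are not given here. Values that turned ranged from -0.093 to 0.079 for PGK1 (WT response), from -0.038 to 0.36 for FBA1, -0.25 to 0.12 for TDH2 and -0.0032 to 0.39 for GPM1 (Spt4-AA response), from -0.074 to 0.043 for TDH3, -0.099 to 0.053 for PGK1 and -0.048 to 0.080 for ENO1 (unstressed strains), and for TDH1 from -0.17 to 0.21 between stressed strains and from -0.11 to 0.27 in the difference. The members' share of library counts ranged from -0.28 to 0.69 percentage points for NaCl and from 1.55 to 2.52 for strain, both from exact permutation tests. Counts per unique read position presume that shared reads were left out, which is not settled. On that basis the TDH1 share was 2.53% and 4.66% in WT without stress and upon NaCl and 2.40% and 3.09% in Spt4-AA cells. That of TDH2 was 21.7%, 18.3%, 23.1% and 19.4%, and that of TDH3 75.8%, 77.0%, 74.5% and 77.5%, in the same order of groups.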

Other observations

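Genes of the reverse pathway also moved upon NaCl. Of 4 gluconeogenesis genes, 3 rose in WT cells by edgeR's quasi-likelihood test, against 36.4% of all genes tested. PYC1, a pyruvate carboxylase gene, had a mean of 94.6 ± 3.3 normalized CPM without stress and of 565 ± 17 upon NaCl (SD, n = 3, log2 fold change 2.58). FBP1, fructose-1,6-bisphosphatase, rose from 1.21 ± 0.092 to 3.16 ± 0.50 and PCK1, phosphoenolpyruvate carboxykinase, from 8.15 ± 0.66 to 12.6 ± 0.96 (SD, n = 3, log2 fold changes 1.37 and 0.63), both at low levels. None of the 4 passed the edgeR test between the stressed strains (unadjusted p under 0.05 in 0, adjusted p from 0.258 up, and 0 with the term for library numbers).

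Of 3 genes for the making and removal of fructose 2,6-bisphosphate, an activator of phosphofructokinase, 2 rose in WT cells by the same test. The share over all genes tested was 36.4%. FBP26, the bisphosphatase gene, rose from 11.7 ± 0.88 to 73.1 ± 4.7 normalized CPM, and the kinase gene PFK26 from 14.1 ± 2.1 to 71.2 ± 3.9 (SD, n = 3), with log2 fold changes of 2.64 and 2.34. The other kinase gene, PFK27, was at 81.8 ± 2.2 and 68.3 ± 7.5 (adjusted p = 0.171, edgeR). Upon NaCl FBP26 and PFK26 were lower in Spt4-AA than in WT cells, by -0.84 and -1.23 on the log2 scale, and both were lower with the term for library numbers as well (-0.74 and -0.98, adjusted p = 0.00172 and 0.00338, edgeR). PFK27 was not called between the stressed strains (0.14, adjusted p = 0.496, edgeR) but was higher in the mutant with the term (0.53, adjusted p = 0.0227, edgeR), as was its difference in response (0.69, adjusted p = 0.0293, edgeR).

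Among 4 genes of glycolytic transcription factors, 2 fell in WT cells upon NaCl by the same test, against 33.9% of all genes tested. RAP1 fell by 0.63 and TYE7 by 0.40 on the log2 scale, and GCR2 had a log2 fold change of -0.32 (adjusted p = 0.0843, edgeR).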
